A study of Mus musculus with 9 samples.

Results

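Simple epithelial keratins are the intermediate filament proteins of epithelia that form a single cell layer. The 5 genes read here were Krt7, Krt8, Krt18, Krt19 and Krt20, chosen by gene name on the array, and they had 7 probes among 41174 and stood among 22648 genes tested. A keratin filament is built from a type II keratin (Krt7, Krt8) paired with a type I keratin (Krt18, Krt19, Krt20), and the partners stabilise each other. Krt8 and Krt18 are the first keratins of the embryo and the common pair of simple epithelia, Krt7 and Krt19 are known in ductal and airway epithelium, and Krt20 is known in intestinal and gastric epithelium and in Merkel cells of the skin. Stratified squamous epithelia, such as that of the esophagus, are instead marked by pairs such as Krt5 with Krt14 in basal cells and Krt4 with Krt13 above them.

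RNA of newborn mouse esophagus (postnatal day 0, C57BL/6J background) was compared between 3 genotypes. The groups were mice null for p63 that also carried a transgene of Cdx2 named for the villin promoter (p63-/-;Cdx2, n = 2), mice null for p63 alone (p63-/-, n = 3) and wild type mice (n = 4). Trp63 encodes the transcription factor p63, which is needed for stratified squamous epithelium, while Cdx2 is an intestinal transcription factor and the villin promoter is active in gut epithelium. Each sample was labelled with Cy5 and hybridised with 1 common reference RNA of 11 mouse cell lines, labelled with Cy3, on an array of its own with no dye swap. Values are given as the log ratio, log2 of Cy5 over Cy3, and as the sample channel, log2 of the Cy5 signal alone. A gene was called where its adjusted p in limma, over all genes, was under 0.05.

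Each genotype had a slide and a scan of its own, so a slide effect and a genotype effect cannot be told apart. The arrays had 30038 to 33249 probes above background in the sample channel, and their number limits the precision. Trp63 had sample channel levels of 11.26 and 11.11 in the knockout with Cdx2, 10.74, 10.81 and 10.82 in the knockout, and 11.60, 11.85, 12.31 and 12.16 in wild type. It fell in the knockout by 1.19 (limma, adjusted p = 0.0101), and its log ratio difference of -0.97 was not called (limma, adjusted p = 0.0746). The deleted part of the gene is not given in the sources used here, so this probe may lie outside it. Cdx2 itself was below the background limit on all 9 arrays, the 2 with the transgene included, and whether its probe reads the transgene was not tested. One label of wild type replicate 4 names the knockout, while its title and genotype label name wild type. The samples are labelled as epithelium, while the protocol names esophageal tissue. All 7 airway and lung markers (Scgb1a1, Scgb3a1, Scgb3a2, Sftpc, Nkx2-1, Muc5b and Bpifa1) were above background on each of the 9 arrays. Such markers, and the levels of the keratins themselves, are those of whole bulk RNA, in which fewer cells of a type and less RNA per cell cannot be told apart.

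The probes that carry the values are shown first, as the sense strand of the transcript from 5′ to 3′. Krt7 was read at chr15:101258172-101258231 on the plus strand of build mm9, from base 1520 of its transcript, and by a second, dimmer probe at chr15:101253718-101253777 from base 1054. Krt8 was read at chr15:101827346-101827405 on the minus strand from base 1541, with a second probe at chr15:101827214-101827273 from base 1673. Krt18 was read at chr15:101862341-101862400 on the plus strand from base 1283. Krt19 was read at chr11:100002392-100002451 on the minus strand from base 1047, and Krt20 at chr11:99289776-99289835 on the minus strand from base 1811. The files give no exon or coding annotation for these positions. The first 30 bases of each brightest probe are printed, and all 60 for Krt19 and for the second Krt7 probe. Capitals mark the longest stretch that the Krt8 and Krt18 probes share, TGGTGTCCGAG, at 11 bases. No other pair among the 7 probes shared a run longer than 7 bases.
Krt7: tggaagatagtctgaaactgctgttggctt
Krt7, second probe: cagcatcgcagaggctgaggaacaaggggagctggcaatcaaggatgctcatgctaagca
Krt8: TGGTGTCCGAGtcttctgatgtcgtgtcca
Krt18: ggatggcagagTGGTGTCCGAGactaatga
Krt19: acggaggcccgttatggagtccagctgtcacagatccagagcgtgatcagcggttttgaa
Krt20: ataagaacacagcacaaggtgattgacatg

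All 7 probes were well above background on all 9 arrays, and none of their spots was flagged or saturated in the sample channel. In the log ratio, no simple keratin was called between any of the 3 pairs of genotypes. Krt19 and Krt7 were the members whose arrays did not overlap between either p63-null group and wild type, and both lay lower in the p63-null mice. In the sample channel Krt7 was called lower in both p63-null groups, but the reference channel of the same Krt7 spots was lower on those arrays too. The groups overlapped for Krt8, Krt18 and Krt20.

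**Figure D1:**
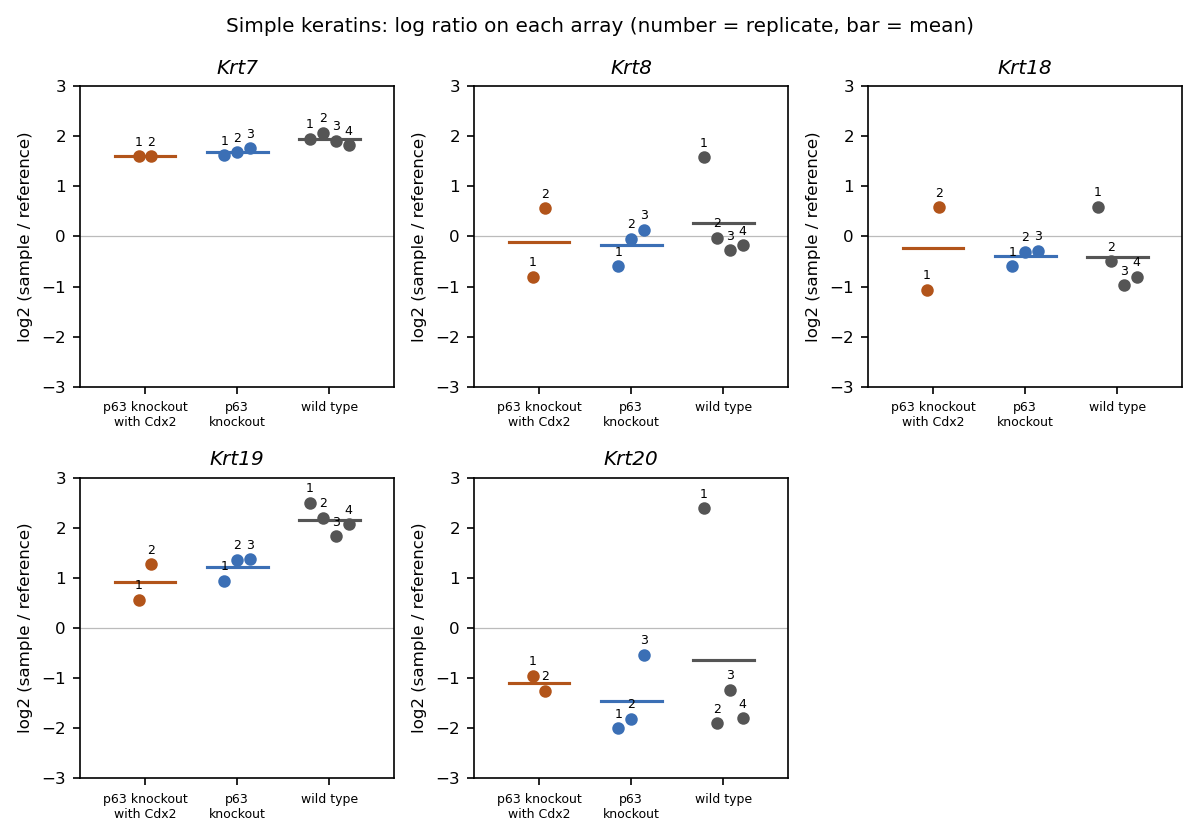
Log2 ratio of sample over reference (y axis) of each simple keratin on each array, with 1 point per mouse numbered by replicate and a bar at the group mean. All 5 p63-null arrays lie below all 4 wild type arrays for Krt7 and Krt19, while wild type replicate 1 stands well above all other arrays for Krt8 and Krt20.

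Krt7, a type II keratin of ductal and airway epithelium, had log ratios of 1.60 and 1.60 in the knockout with Cdx2, 1.62, 1.68 and 1.76 in the knockout, and 1.94, 2.07, 1.91 and 1.82 in wild type. Sample exceeded reference on every array, and the p63-null arrays lay just below the wild type arrays with no overlap. The second probe showed the same order of groups, at 2.16 and 2.07 in the knockout with Cdx2, 2.18, 2.28 and 2.25 in the knockout, and 2.42, 2.63, 2.32 and 2.60 in wild type. The log ratio of the brighter probe differed by -0.25 (SE 0.08) between the knockout and wild type (limma, adjusted p = 0.426). It differed by -0.34 (SE 0.09) between the knockout with Cdx2 and wild type (limma, adjusted p = 0.108). Neither difference was called, and as ratios of sample over reference they are 1.19-fold and 1.26-fold lower in the p63-null mice. The sample channel alone gave larger differences at the same spots.

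On the sample channel scale Krt7 stood at 15.02 and 15.34 in the knockout with Cdx2, 14.69, 15.29 and 15.35 in the knockout, and 16.39, 16.42, 16.06 and 16.22 in wild type. Every p63-null array lay below every wild type array. Krt7 fell by 1.16 in the knockout against wild type (SE 0.18, 2.24-fold; limma, adjusted p = 0.0190), and by 1.09 in the knockout with Cdx2 (SE 0.20, 2.13-fold; limma, adjusted p = 0.0380). Its second probe fell by 0.88 in the knockout (limma over probes, adjusted p = 0.00729) and by 0.80 in the knockout with Cdx2 (limma over probes, adjusted p = 0.0223). It was the 1 member of 5 called lower in the sample channel, where 0.971% of all genes were called lower in the knockout and 1.54% in the knockout with Cdx2. The knockout call was lost without wild type replicate 1 (-1.12; limma, adjusted p = 0.0509), 2 (-1.11; 0.0664) or 4 (-1.18; 0.0595) or knockout replicate 2 (-1.25; 0.0565). The call with Cdx2 was kept in 1 of 9 such fits, the one without knockout replicate 1 (limma, adjusted p = 0.0146), and over the others the adjusted p reached 0.176.

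The reference RNA is the same on all arrays, and its signal at the Krt7 probe was 13.43 and 13.74 beside the knockout with Cdx2, 13.07, 13.61 and 13.59 beside the knockout, and 14.45, 14.35, 14.14 and 14.39 beside wild type. These values again separate the p63-null arrays from the wild type arrays. The reference differed by -0.91 between knockout and wild type arrays (SE 0.15; limma, adjusted p = 0.0101) and by -0.75 between arrays of the knockout with Cdx2 and of wild type (SE 0.17; limma, adjusted p = 0.213). At the second probe the reference averaged 9.70 ± 0.25 (SD, n = 2) beside the knockout with Cdx2, 9.51 ± 0.12 (SD, n = 3) beside the knockout and 10.13 ± 0.08 (SD, n = 4) beside wild type. Of all genes 6.72% were called lower in the reference channel on knockout arrays than on wild type arrays, and 0.181% on arrays of the knockout with Cdx2. How much of the Krt7 difference in the sample channel comes with the array was not tested, and the log ratio, which divides by the reference of the same spot, differed by -0.25 where the sample channel differed by -1.16. With log ratios scaled between arrays that -0.25 became -0.72 (limma, adjusted p = 0.719). Krt7 was not alone in this. All 14 other keratins called lower in the sample channel in the knockout also differed less in the log ratio. Krt5 differed by -6.57 in the sample channel and -1.48 in the log ratio, Krt4 by -3.82 and -0.94, and Krt15 by -2.55 and -0.36. Over all genes the median reference difference between knockout and wild type arrays was -0.03. The cause was not tested.

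**Figure D2:**
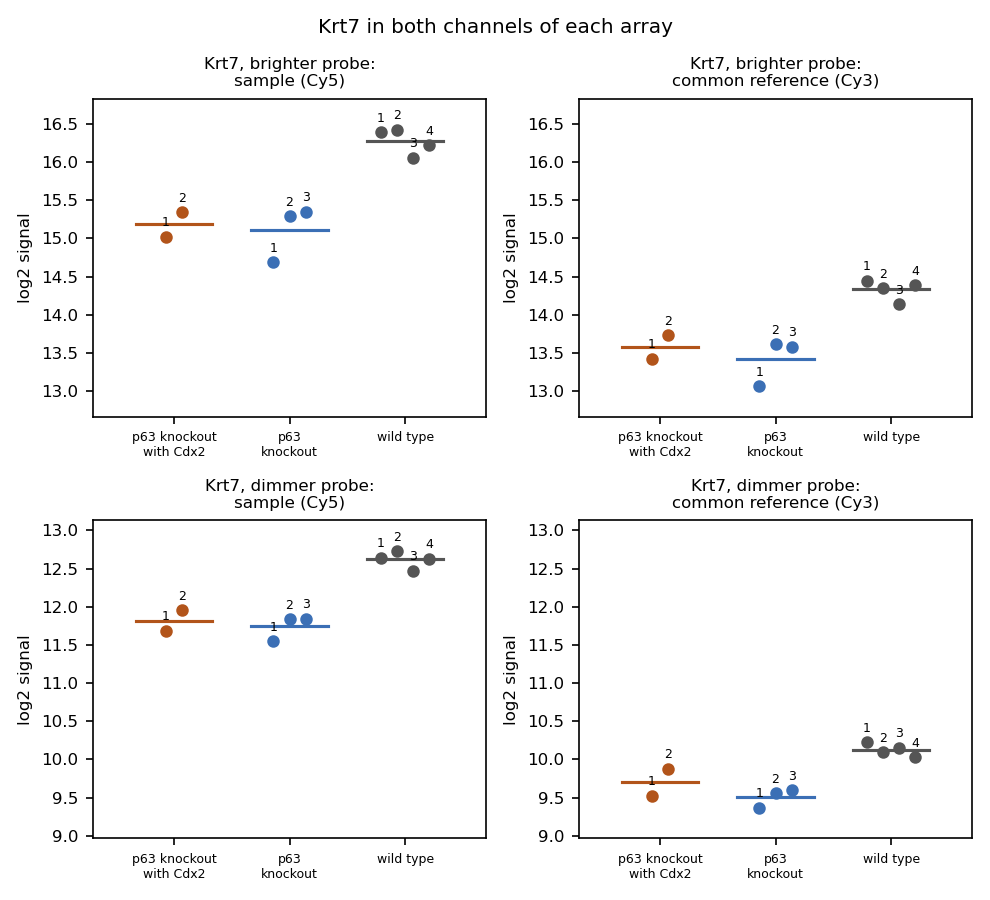
Log2 signal (y axis) of both Krt7 probes in the sample channel (left) and the common reference channel (right) of each array, with points numbered by replicate and bars at group means. The p63-null arrays lie below the wild type arrays in both channels, with the brighter probe's reference at 13.07 to 13.74 beside p63-null samples and 14.14 to 14.45 beside wild type.

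Krt8, the type II keratin of the earliest simple epithelia, had log ratios of -0.81 and 0.56 in the knockout with Cdx2, -0.59, -0.05 and 0.14 in the knockout, and 1.58, -0.02, -0.28 and -0.18 in wild type. Wild type replicate 1 stood above all other arrays, and the remaining wild type arrays lay inside the range of the p63-null arrays. The second probe gave -0.64 and 0.54 in the knockout with Cdx2, -0.50, 0.07 and 0.20 in the knockout, and 1.20, -0.19, -0.19 and -0.12 in wild type. The difference between knockout and wild type was -0.44 (SE 0.50, 95% interval -1.59 to 0.70; limma, adjusted p = 0.853) and became -0.01 without wild type replicate 1 (limma, adjusted p = 0.997). With Cdx2 against wild type it was -0.39 (SE 0.57; limma, adjusted p = 0.770), and 0.04 without that array. Krt8 had sample channel levels of 14.91 and 16.19 in the knockout with Cdx2, 14.88, 15.46 and 15.49 in the knockout, and 17.16, 15.78, 15.27 and 15.59 in wild type. That channel gave a knockout difference of -0.67 (SE 0.48; limma, adjusted p = 0.559), again with overlapping groups.

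Krt18, the type I partner of Krt8, had log ratios of -1.07 and 0.58 in the knockout with Cdx2, -0.60, -0.31 and -0.28 in the knockout, and 0.60, -0.50, -0.97 and -0.81 in wild type. The knockout arrays lay inside the wild type range, and the highest values were those of wild type replicate 1 and of replicate 2 of the knockout with Cdx2, the 2 arrays that were also highest for Krt8. The difference between knockout and wild type was 0.02 (SE 0.46, 95% interval -1.02 to 1.07; limma, adjusted p = 0.992). Without wild type replicate 1 that difference was 0.36 (limma, adjusted p = 0.898), and without wild type replicate 4 it was -0.10 (limma, adjusted p = 0.965). The interval spans changes in both directions, so these arrays do not show that Krt18 was unchanged. With Cdx2 against wild type the difference was 0.18 (SE 0.52, 95% interval -1.01 to 1.36; limma, adjusted p = 0.900). Krt18 had sample channel levels of 15.66 and 16.92 in the knockout with Cdx2, 15.82, 16.12 and 16.11 in the knockout, and 16.91, 16.04, 15.47 and 15.85 in wild type.

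Krt19, a type I keratin of ductal and airway epithelium, had log ratios of 0.56 and 1.27 in the knockout with Cdx2, 0.94, 1.36 and 1.37 in the knockout, and 2.50, 2.20, 1.83 and 2.07 in wild type. The 5 p63-null values were lower than the 4 wild type values without exception, while the p63-null groups overlapped each other. The difference of -0.93 between knockout and wild type (SE 0.21, 1.90-fold, 95% interval -1.42 to -0.44) was not called after adjustment over all genes (limma, adjusted p = 0.224). The difference of -1.23 between the knockout with Cdx2 and wild type (SE 0.24, 2.35-fold, 95% interval -1.79 to -0.68) lay just outside the threshold (limma, adjusted p = 0.0524). With each array left out in turn it lay between -1.59 and -0.88, with adjusted p in limma from 0.0473 to 0.241. It passed without wild type replicate 3 (-1.34) or without replicate 2 of the knockout with Cdx2 (-1.59). Without wild type replicate 4, the array with the conflicting label, it was -1.26 (limma, adjusted p = 0.129).

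Krt19 in the sample channel stood at 13.20 and 13.96 in the knockout with Cdx2, 13.48, 13.94 and 14.01 in the knockout, and 15.47, 14.96, 14.55 and 14.80 in wild type. The groups again did not overlap with wild type. The sample channel differences were -1.13 (SE 0.26; limma, adjusted p = 0.0902) for the knockout and -1.37 (SE 0.30; limma, adjusted p = 0.0580) for the knockout with Cdx2, and neither was called. The reference channel at Krt19 differed by -0.20 (SE 0.07; limma, adjusted p = 0.0881) beside the knockout and by -0.13 (SE 0.08; limma, adjusted p = 0.583) beside the knockout with Cdx2.

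Krt20, a type I keratin of intestinal and gastric epithelium, had log ratios of -0.95 and -1.26 in the knockout with Cdx2, -2.01, -1.81 and -0.54 in the knockout, and 2.38, -1.91, -1.23 and -1.80 in wild type. Of the 9 arrays 8 had less signal in the sample than in the reference, and wild type replicate 1 alone had more. Its sample channel level was 10.70 and 10.31 in the knockout with Cdx2, 9.49, 9.76 and 10.91 in the knockout, and 14.24, 9.65, 10.32 and 9.73 in wild type. The log ratio difference of -0.81 between knockout and wild type (SE 0.98; limma, adjusted p = 0.866) became 0.20 without that array (SE 0.38; limma, adjusted p = 0.942). The difference of -0.47 between the knockout with Cdx2 and wild type (SE 1.12; limma, adjusted p = 0.874) became 0.54 without it (SE 0.43; limma, adjusted p = 0.562). The direction for Krt20 therefore rested on 1 wild type array.

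Some but not all of the 10 markers of gastric and intestinal epithelium were also high on that array. Gkn2, a secreted protein of the gastric surface, had log ratios of 0.88 and 0.21 in the knockout with Cdx2, -0.01, 0.28 and 0.06 in the knockout, and 4.22, 0.03, -0.01 and -0.04 in wild type. Vil1, the actin-binding protein of brush borders, had 1.44 and 1.99, then 1.94, 1.56 and 1.96, and then 3.05, 0.99, 0.43 and 1.05 in the same groups. Both were highest on wild type replicate 1. Tff1, a trefoil peptide of gastric mucus, had 0.00 and 2.12 in the knockout with Cdx2, 2.80, 2.10 and 2.66 in the knockout, and 2.85, 1.24, 0.51 and 1.35 in wild type. In the log ratio knockout arrays thus came close to wild type replicate 1. In the sample channel Tff1 was highest on that array at 16.49, against 12.43, 10.42 and 13.47 in the knockout. Some other markers of the list did not have their highest log ratio on wild type replicate 1. Fabp1, a fatty acid binding protein, had 4.38 on wild type replicate 1, within 4.14 to 5.06 over all arrays, and Fabp2 had 2.47 there, against 3.81 on replicate 2 of the knockout with Cdx2. Tff2 had 2.46, against 2.58 on knockout replicate 1, Muc2 had 0.09, and Cdh17 was not well above background on wild type replicate 1. The summed sample signal of the 10 markers of this list was 39046 to 49181 in the knockout with Cdx2, 26307 to 39046 in the knockout and 5860 to 160467 in wild type, with the highest sum in wild type replicate 1. Between 7 and 9 of the 10 were above background on each array, and Gkn1 was not on any. The part of these cells in the Krt20, Krt8 and Krt18 values was not tested.

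**Figure D3:**
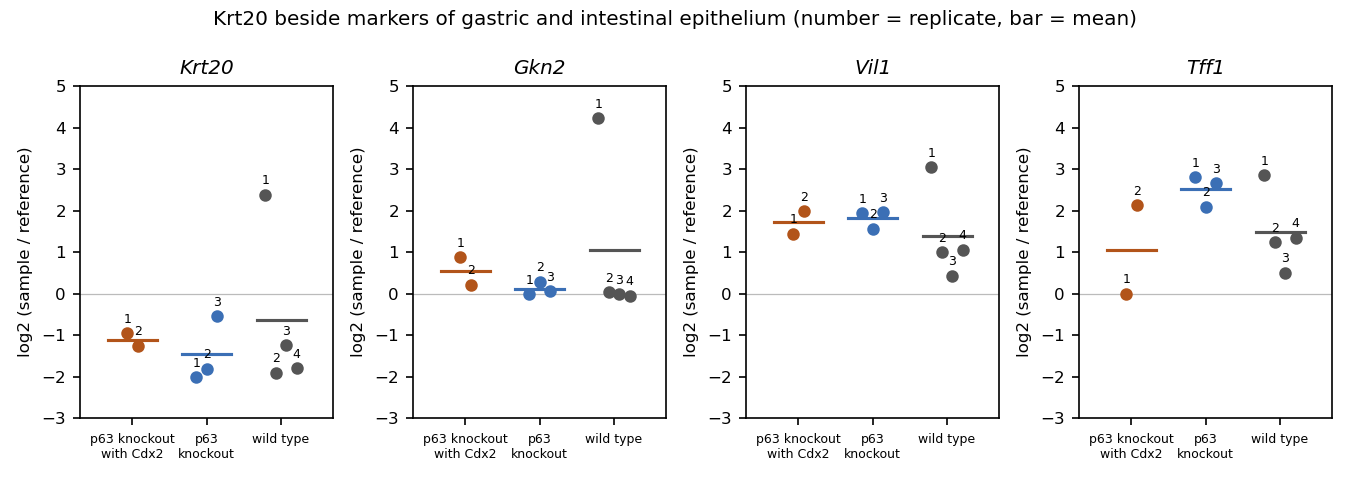
Log2 ratio of sample over reference (y axis) of Krt20 and of the gastric and intestinal markers Gkn2, Vil1 and Tff1 on each array, with points numbered by replicate and bars at group means. Wild type replicate 1 is highest for Krt20 at 2.38, Gkn2 at 4.22 and Vil1 at 3.05, while for Tff1 it is at 2.85 with 2 knockout arrays close to it.

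Set against the knockout alone, the knockout with Cdx2 showed no called member in either measure. The log ratio differences were -0.09 for Krt7 (95% interval -0.30 to 0.13), 0.05 for Krt8 (-1.32 to 1.42), 0.15 for Krt18 (-1.10 to 1.40), -0.30 for Krt19 (-0.89 to 0.28) and 0.35 for Krt20 (-2.35 to 3.04), with limma adjusted p from 0.671 to 0.984. At an unadjusted p under 0.05 the count was 0 of 5 members, where 11.4% of all genes passed. In this comparison limma called 0 genes of 22648 in the log ratio, which is 0%, and 0.225% in the sample channel. Krt7 was the 1 member whose arrays did not overlap, lower with Cdx2, where 18% of all genes did so. Krt20, the member known from intestine, stood at -0.95 and -1.26 with the transgene, inside the knockout range of -2.01 to -0.54. The groups of 2 and 3 mice leave the Krt20 interval wide, and a several-fold change in either direction was not detectable.

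Counted over the members, 0 of 5 were called in the log ratio between knockout and wild type, where 0.327% of all genes were called, and 0 of 5 between the knockout with Cdx2 and wild type, where 1.41% were. At an unadjusted p under 0.05 in limma, Krt7 and Krt19 passed in both, 2 of 5 members, against 7.79% and 18.1% of all genes. The same 2 members lay lower without overlap, against 4.57% of genes for the knockout and 13.8% for the knockout with Cdx2. By sample channel level 2 of 5 lay lower without overlap in each comparison, against 9.03% and 14.1% of all genes. The median log ratio difference of the 5 members was that of Krt8 in each comparison, at -0.44 for the knockout and -0.39 with Cdx2 added, each against wild type, and 0.05 between the p63-null groups. Over all genes these medians were 0.02, -0.0042 and -0.03.

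**Figure D4:**
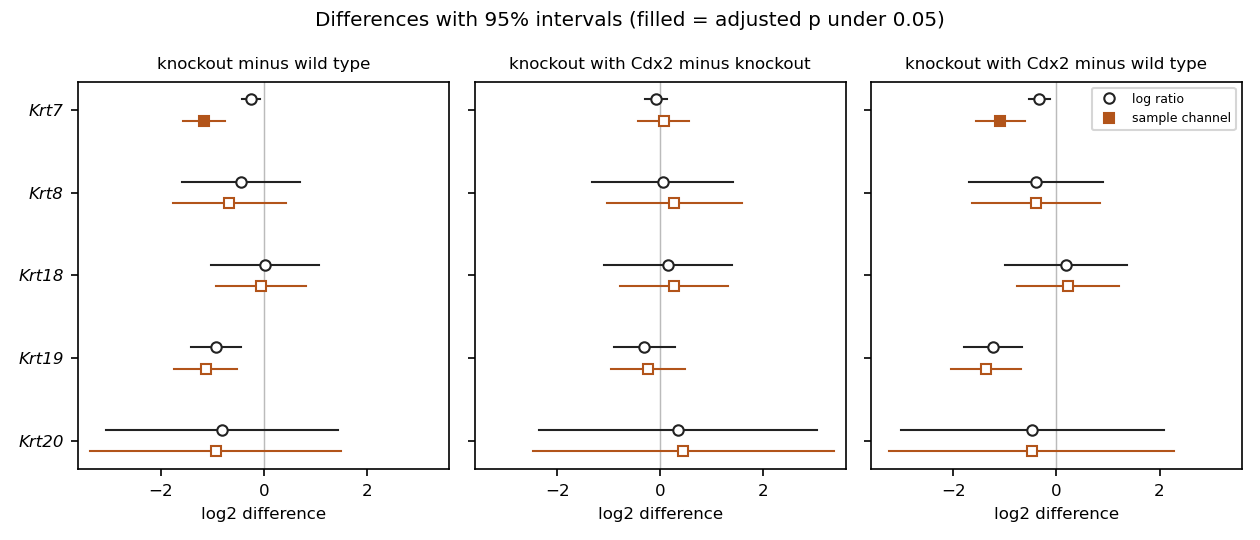
Log2 differences between genotypes (x axis) for each simple keratin, with 95% intervals from limma, for the log ratio (circles) and the sample channel (squares). The filled symbols, for adjusted p under 0.05, are those of Krt7 in the sample channel at -1.16 and -1.09, and the widest intervals are those of Krt20.

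By mean log ratio, the knockout with Cdx2 was lowest and wild type highest for Krt7 and Krt19. Krt7 averaged 1.60 ± 0.01 in the knockout with Cdx2, 1.69 ± 0.07 in the knockout and 1.94 ± 0.10 in wild type (SD, n = 2, 3 and 4). Krt19 averaged 0.92 ± 0.50, 1.22 ± 0.25 and 2.15 ± 0.28 in the same groups. For Krt19 the p63-null groups did not differ beyond their spread. From low to high, Krt8 and Krt20 had the order knockout, knockout with Cdx2, wild type, and Krt18 the order wild type, knockout, knockout with Cdx2. No neighbours in these 3 orders differed beyond the spread within groups, with SDs of up to 0.97 for Krt8, 1.17 for Krt18 and 2.04 for Krt20.

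The members were also set against each other across the 9 arrays. Krt8 and Krt18 followed each other, with a Pearson r of 0.88 and a Spearman rho of 0.93 over the 9 arrays, and an r of 0.84 without the 2 arrays farthest from the Krt8 median. After the mean of each genotype was subtracted, r was 0.96 for Krt8 with Krt18, 0.90 for Krt8 with Krt19 and 0.93 for Krt18 with Krt19. Without that subtraction, Krt19 had an r of 0.65 with Krt8 and 0.32 with Krt18, and these were 0.02 and 0.16 without the 2 farthest arrays of each pair. After subtraction of the genotype means, Krt20 had an r of 0.78 with Krt8 and 0.61 with Krt18, and Krt7 had 0.14 to 0.36 with the other 4. Over the 9 arrays without that subtraction, Krt7 had an r of 0.88 and a rho of 0.95 with Krt19. That r was 0.85 without the 2 farthest arrays, and with the other members Krt7 had 0.01 to 0.37 over the 9 arrays. For Krt18 with Krt20, r over the 9 arrays was 0.57 and rho 0.25, and r without the 2 farthest arrays was -0.10. For Krt8 with Krt20, r over the 9 arrays was 0.80 and rho 0.37, and r without the 2 farthest arrays was 0.50. These values are descriptions over 9 arrays in 3 genotype groups that share a reference RNA, and no test is given with them.

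The genes most like each member were named by the highest r of their log ratio over the 9 arrays. They were Nfx1, Sh3bp1 and Zfp944 for Krt7 (0.97, 0.97 and 0.96), B3gnt7, Tm9sf3 and Fam234b for Krt8 (0.97, 0.97 and 0.96), and Dennd2d, Nfkbiz and Bcl2l14 for Krt18 (0.97, 0.95 and 0.95). For Krt19 they were Ssbp4, Gsta4 and Pbp2 (0.98, 0.97 and 0.97), and for Krt20 Rnf128, Arl14 and Utp11 (0.97, 0.96 and 0.96). After subtraction of the genotype means they were Nelfb, Sh3bp1 and Nfx1 for Krt7, Arfgef3, Clrn3 and Bpifb1 for Krt8, and Trabd, Prap1 and Dennd2d for Krt18. They were Tradd, Snx7 and Snx14 for Krt19, and Capn9, Msmo1 and Ubxn8 for Krt20, with the highest r of all at 1.00 for Capn9. The highest among all genes tested can reach such values over 9 arrays by their number alone, so only the names and the measure are given.

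Krt8 and Krt18 lie close together on chromosome 15, with 2 predicted genes (Gm36026 and Gm41404) between them in the RefSeq annotation of GRCm38.p6. Because they moved together across arrays, the 60 bases before their annotated starts are shown from RefSeq (GRCm38.p6), with Krt7 and Krt20 for comparison. They lie at chr15:102004343-102004402 on the minus strand for Krt8, chr15:102028156-102028215 on the plus strand for Krt18, chr15:101412343-101412402 on the plus strand for Krt7 and chr11:99438154-99438213 on the minus strand for Krt20. Capitals mark TATAAA in Krt20 and the reverse complement of GGGCGG in Krt7.
Krt8: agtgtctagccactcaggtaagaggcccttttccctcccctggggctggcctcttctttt
Krt18: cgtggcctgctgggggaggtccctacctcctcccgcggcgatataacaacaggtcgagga
Krt7: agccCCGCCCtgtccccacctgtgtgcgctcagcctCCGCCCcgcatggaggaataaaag
Krt20: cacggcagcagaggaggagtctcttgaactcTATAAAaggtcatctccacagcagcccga
Over 250 bases before and 50 after the start, read on both strands, TATAAA was found in 13.6% of 32851 promoters and GGGCGG in 35.7%, and these motifs do not overlap each other. Krt20 had 1 TATAAA, at position -29, and Krt8 had 2, the first at position -3. Krt7 had 4 GGGCGG, and Krt18 had neither motif in this window. Krt8 and Krt18 thus shared neither motif here.

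The other keratins give the setting for these values. Of 41 other keratin genes on the array 35 were tested. In the log ratio 6 fell and 0 rose in the knockout against wild type, where 0.327% of all genes were called. Krt14, the type I keratin of basal cells, fell by 2.22 (SE 0.10; limma, adjusted p = 0.000241), with log ratios of -0.99, -1.12 and -1.16 in the knockout, against 1.02, 1.12, 1.09 and 1.31 in wild type. Wild type replicate 4 lay with the other wild type arrays here. Krt6b fell by 2.40, Krt6a fell by 1.88 and Krt17 fell by 1.66, all keratins of squamous and activated epithelium. Krt6b was well above background on 1 of 3 knockout arrays and on 4 of 4 wild type arrays, and Krt6a and Krt6b are near-identical copies whose probes may share signal. The median of the 35 was -0.22, against 0.02 over all genes.

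In the knockout with Cdx2 against wild type, 8 of the 35 other keratins fell and 0 rose in the log ratio, with a median of -0.42. Of all genes 1.41% were called there. Krt14 fell by 2.49, Krt6a fell by 2.08 and Krt80 fell by 1.75, and Krt6b, not well above background on either array with Cdx2, was at least 20.7-fold lower in the sample channel (limma on the log ratio, adjusted p = 0.000988). With and without Cdx2 in the knockout, 0 of 35 differed in limma, and 2 did at an unadjusted p under 0.05, where 11.4% of all genes did. By sample channel level 14 fell in the knockout and 15 in the knockout with Cdx2, with none higher. Of all genes 0.971% and 1.54% were called lower in that channel. The largest falls were those of Krt5, Krt6a, Krt6b and Krt17 in the knockout, and of Krt5, Krt6a, Krt6b and Krt4 in the knockout with Cdx2. Krt5, the basal type II keratin, had sample channel levels of 7.40 and 12.01 in the knockout with Cdx2, 7.92, 9.37 and 8.66 in the knockout, and 15.03, 15.10, 15.31 and 15.44 in wild type. Whether simple keratins as a class differ from the others was not tested.

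**Figure D5:**
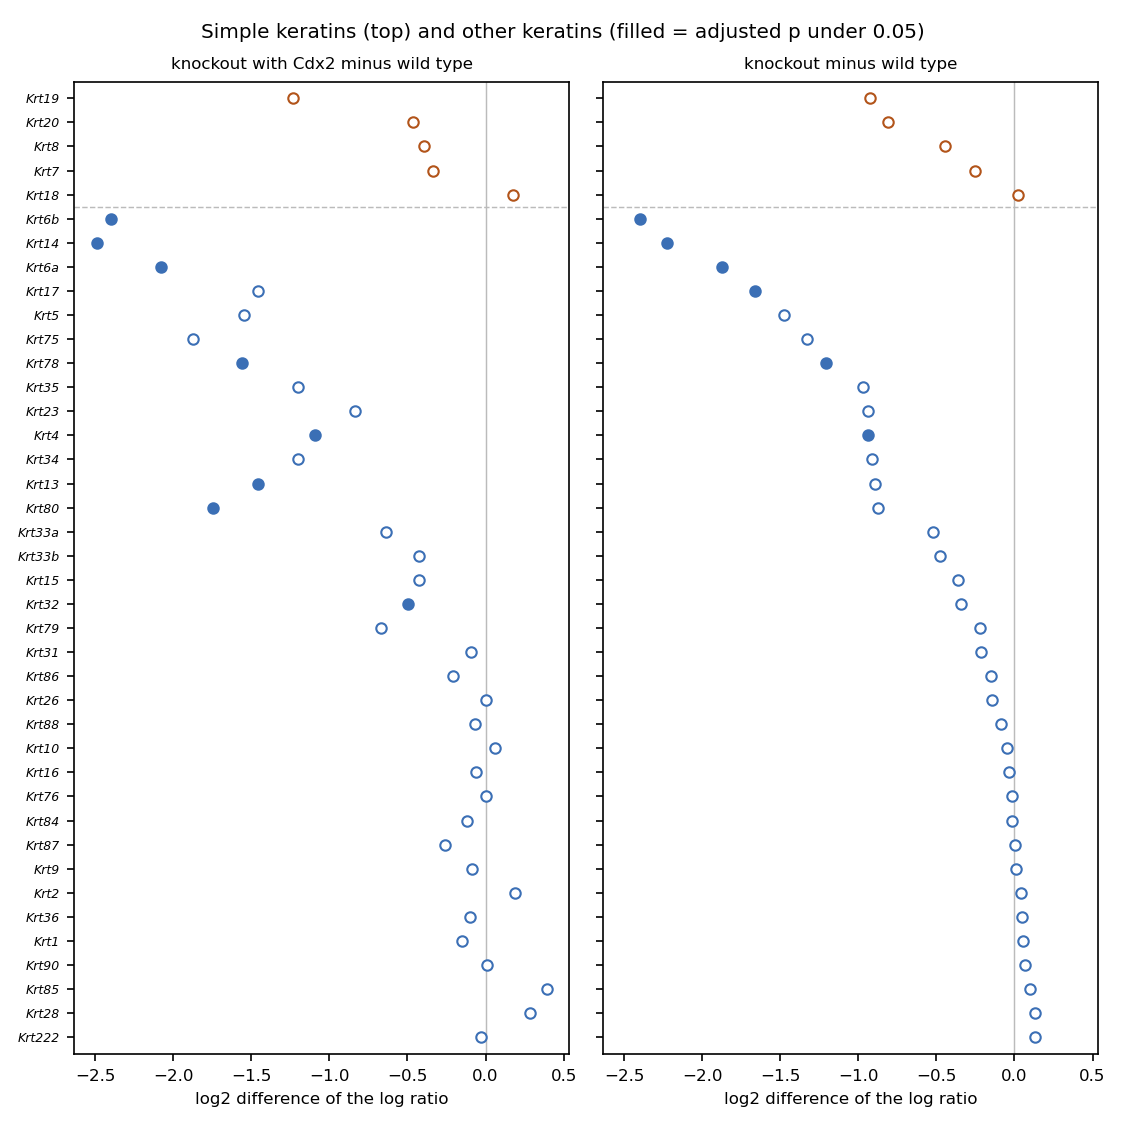
Log2 differences of the log ratio (x axis) of the 5 simple keratins (above the dashed line) and the 35 other keratins tested (below it), for the knockout with Cdx2 (left) and the knockout (right) against wild type, filled where adjusted p was under 0.05. Filled points stand among the other keratins, 8 at left and 6 at right, and none among the simple keratins.

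Of 14 tested keratins of stratified epithelia, 6 fell in the knockout and 7 in the knockout with Cdx2 in the log ratio, with medians of -0.94 and -1.46. Of all genes 0.327% and 1.41% were called in these comparisons. Krt80 had the lowest p of the 14 between the p63-null groups (difference -0.87; limma, adjusted p = 0.392). The summed sample signal of 5 basal squamous markers was 40327 to 46230 in the knockout with Cdx2, 39661 to 54822 in the knockout and 248377 to 315756 in wild type. That of 5 suprabasal markers was 1457 to 2485, 2277 to 2847 and 27654 to 33567 in the same 3 groups. Krt15 made up most of each basal sum, at sample channel levels of 17.51 to 17.87 in wild type and 14.95 to 15.55 in the knockout. Its log ratio difference in the knockout was -0.36 and was not called (limma, adjusted p = 0.3525). By log ratio 2 of the 5 basal markers were called lower in the knockout and 3 with Cdx2. Smooth muscle markers summed to 211264 and 277293 in the knockout with Cdx2, 248225 to 267299 in the knockout and 312525 to 585663 in wild type, so they were lower without overlap in both p63-null groups as well. None of the 5 smooth muscle genes was called in limma, and 4 had an unadjusted p under 0.05 in the log ratio in each comparison with wild type. Of all genes 7.79% did so in the knockout and 18.1% in the knockout with Cdx2. Both the squamous and the smooth muscle markers thus moved with genotype where Krt7 and Krt19 lay lower, and their part in those values was not tested.

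Genes of simple epithelium in general were mostly uncalled. Of 20 such genes, among them the adhesion proteins Epcam and Cdh1 and several claudins, 0 were called in the log ratio in the knockout against wild type, and the lowest p was that of Epcam (difference -0.37, SE 0.12; limma, adjusted p = 0.417). At an unadjusted p under 0.05 there were 5 of the 20, where 7.79% of all genes passed. In the knockout with Cdx2 against wild type 1 fell, Elf3, an epithelial transcription factor of the ETS family, where 1.41% of all genes were called. Elf3 had log ratios of -0.56 and -0.02 in the knockout with Cdx2, 0.31, -0.02 and 0.62 in the knockout, and 1.04, 1.11, 0.71 and 0.77 in wild type, and its fall of 1.20 with Cdx2 passed (SE 0.22; limma, adjusted p = 0.0465). Between the p63-null groups none was called and 2 passed without adjustment, where 11.4% of all genes did. The lowest p between these groups was that of Elf3 (-0.59; limma, adjusted p = 0.404). The list medians were -0.11 for the knockout and -0.12 with Cdx2 added, each against wild type, and -0.04 between the p63-null groups. The summed sample signal of the list overlapped between groups, at 46951 to 58541 in the knockout with Cdx2, 49186 to 60403 in the knockout and 50178 to 69261 in wild type.

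Among these 20 genes, 2 were called lower and 1 higher in the sample channel in the knockout against wild type. Of all genes 0.971% were called lower in that comparison. Not all of the called genes are named here. The list median in the sample channel was -0.38 in the knockout and -0.26 with Cdx2 against wild type, against 0.01 over all genes in both. Cldn4, a tight junction protein, fell by 0.83 (limma, adjusted p = 0.0268). Spint2, an inhibitor of membrane serine proteases, rose by 1.09 (limma, adjusted p = 0.0344). The log ratios of Spint2 overlapped, at 1.31, 1.33 and 1.44 in the knockout and 1.45, 1.46, 0.59 and 1.24 in wild type. Its sample channel levels were 8.61 and 9.18 in the knockout with Cdx2, against 9.39, 9.33, 8.71 and 9.09 in wild type. In the knockout with Cdx2 against wild type 2 of the 20 were called lower and 0 higher, where 1.54% of all genes were called lower. Elf3, 1 of these 2, fell by 1.66 (limma, adjusted p = 0.0346).

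Partners and linkers of keratin filaments were read next. Of 16 genes tested, 4 fell in the knockout and 5 in the knockout with Cdx2 against wild type in the log ratio, and 0 rose. Of all genes 0.327% and 1.41% were called in these comparisons. The medians of the 16 were -0.25 and -0.52. Pkp1, a plakophilin of the desmosome plaque, had log ratios of -0.95 and -0.55 in the knockout with Cdx2, -0.90, -0.72 and -0.33 in the knockout, and 2.25, 2.55, 2.24 and 2.50 in wild type. It fell by 3.04 in the knockout (limma, adjusted p = 0.000244) and fell by 3.13 in the knockout with Cdx2 (limma, adjusted p = 0.000443). Ppl, the plakin periplakin, differed by -1.02 in the knockout and -1.47 with Cdx2, and Pkp3, another plakophilin, by -0.89 and -0.91, all called. These 3 had the largest changes among the calls. Between the p63-null groups none passed, and Plec had the lowest p (-0.37; limma, adjusted p = 0.411).

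Of 18 tested transcription factors known for simple keratin genes or epithelial fate, 1 fell in the log ratio in each comparison with wild type. It was Klf5, a zinc finger factor of proliferating epithelium. Of all genes 0.327% were called in the knockout and 1.41% with Cdx2. In the sample channel 3 of the 18 were called lower in the knockout, Trp63 among them, and 2 with Cdx2. There 0.971% and 1.54% of all genes were called lower. Klf5 had log ratios of 0.77 and 1.01 in the knockout with Cdx2, 1.18, 1.15 and 1.28 in the knockout, and 1.75, 1.78, 1.77 and 1.90 in wild type. It fell by 0.59 in the knockout (limma, adjusted p = 0.0305) and by 0.91 in the knockout with Cdx2 (limma, adjusted p = 0.00776). Between the p63-null groups it had the lowest p (-0.31; limma, adjusted p = 0.368) and was not called. Of 9 other intermediate filament genes 0 were called in limma in any comparison, and the lowest p were those of Synm in the knockout (-0.65; adjusted p = 0.635), Lmnb1 between the p63-null groups (0.61; adjusted p = 0.423) and Des with Cdx2 against wild type (-0.47; adjusted p = 0.262). At an unadjusted p under 0.05 there were 1, 2 and 1 such genes in these comparisons, against 7.79%, 11.4% and 18.1% of all genes.

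Other cells of the sampled tissue can make simple keratins, and several lists of their markers are given here, not all of them. The summed signal of 3 thymic epithelial markers was 401 and 20434 in the knockout with Cdx2, 569 to 4083 in the knockout and 361 to 447 in wild type. Of the 3, 1 to 3 were above background on the wild type arrays and 2 to 3 on the p63-null arrays. The wild type sums and the sum of 401 lie near the floor, so ratios to them are not given. The airway and lung list summed to 529861 and 1062460 in the knockout with Cdx2, 876392 to 1249909 in the knockout and 736247 to 1223720 in wild type. Replicate 2 of the knockout with Cdx2, the higher of that group for Krt8, Krt18 and Krt19, was also the higher for both of these lists. It was likewise the higher for the mesothelial, multiciliated, Merkel and neuroendocrine, fibroblast and smooth muscle lists, so this order was not particular to any of them. For the gastric and intestinal list it was the lower, at 39046 against 49181. Mesothelial markers summed to 16346 and 55364 in the knockout with Cdx2, 44801 to 62276 in the knockout and 37707 to 62445 in wild type, and the 6 multiciliated markers to 8807 and 20717, 14798 to 34204 and 6464 to 23556 in the same groups. Markers of Merkel and neuroendocrine cells, in which Krt20 is known, summed to 14836 and 15158, 24361 to 28525 and 15860 to 39778, with the lowest wild type sum on replicate 1. The part of these cells in the keratin values was not tested.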

How the data were processed

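RNA of newborn esophagus from 9 mice was read on 2-colour Agilent arrays, with Cy5 for the sample and Cy3 for a common reference. Per the file headers, the deposited intensity values are mean spot and local background signals of each channel from Agilent Feature Extraction 10.7.3.1, while the submitters' processing notes name version 9.1. The deposited log10 ratios of Cy5 over Cy3 come from the same software, per the file headers. The authors' deposited table of values holds a log2 ratio of sample over reference, read as such because each column correlated with its own array's scanner ratio at 0.992 or above, and its column medians ran from -0.21 to -0.03, so no centring was seen. Probe positions are given on mm9, per the file headers.

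Of 45018 spots per file 1639 were controls, and 119 to 171 spots were flagged, and these were left out. Backgrounds were corrected with normexp (offset 50), log ratios with loess, and the channels with Aquantile. Spots of 1 probe were averaged, and 33761 of 41174 probes well above background on at least 2 arrays were kept. The brightest probe stood for a gene. Of all probes, 26918 were named by accession and 5899 by symbol or synonym from the RefSeq annotation (GRCm38.p6), and 8357 kept the name in the file. All 9 arrays entered 1 limma fit (version 3.58.1, R 4.3.3) with Benjamini-Hochberg adjustment over 22648 genes and a threshold of 0.05. P-values measure the spread between mice labelled as biological replicates. The fit was tested on simulated data.

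The members and lists were chosen with earlier results of these data known. Named genes were the members, up to 4 called keratins per direction, up to 3 called genes per list and direction by size (or the lowest p where none was called), and the 3 genes most like each member. Where a gene was not above background on any array of a group, a bound is given: the brighter group's mean against the higher of the dim probe's own signal and the lowest signal among probes well above background. Alternatives covered background, normalization, filter, probe choice, the replicate block, the groups fitted, the prior and the omission of each array. Some results of the gene lists are not reported here.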

Additional observations from a re-analysis of the deposited data

Results flagged for a closer look

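Wild type replicate 1 stood far from the other wild type arrays in 3 values. The Krt8 log ratio was 1.575 there, and the gap to the nearest wild type array was 0.861 of the group's range. The Krt20 log ratio was 2.3835, with a gap of 0.843 of the range, and the Krt20 sample channel level was 14.2421, with a gap of 0.855. These were 3 of 10 wild type values examined, where chance sets about 1 in 20 single groups apart in this way. The 10 values are log ratios and sample channel levels of the same genes on the same 4 arrays, and Krt20 is counted in both. They are not independent, so the count of 3 cannot be set against that rate. Groups of fewer than 4 arrays, which both p63-null groups are, were not examined. The gastric and intestinal markers on that array summed to 160467, against 5860 to 70082 on the other wild type arrays, and their part in these values was not tested.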

How the results depend on the processing

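No Krt7, Krt8, Krt18 or Krt20 log ratio difference was called under any alternative run. Scaling log ratios between arrays moved that of Krt7 to -0.72 in the knockout and -0.75 with Cdx2 against wild type. Krt19 with Cdx2 against wild type, at -1.23, passed with no background subtraction (-1.25; limma, adjusted p = 0.0300), with the scanner software's log ratio (-1.22; 0.0499), with the authors' value table (-1.22; 0.0499) and with a trended robust prior (-1.23; 0.0493), 4 of 13 settings. In the sample channel Krt7 passed in 12 of 13 settings for the knockout and 11 of 13 with Cdx2. It was not called with quantile scaling of the sample channel (-1.03 with Cdx2; limma, adjusted p = 0.0589). With the replicate block it was -1.18 for the knockout (limma, adjusted p = 0.154) and -1.11 with Cdx2 (0.233). After genotype means were subtracted, same-numbered arrays had r from -0.13 to 0.19 with each other. Replicates 2 of wild type and of the knockout with Cdx2 (0.19) were each other's closest arrays between their groups. So were replicates 3 of wild type and of the knockout (0.18), and the other same-numbered pairs were not. With groups of 2 to 4 arrays, these values cannot decide whether the numbers pair the samples. The block also turned the log ratio sign of Krt18 in the knockout (-0.10) and with Cdx2 (-0.0915) against wild type, and of Krt8 between the p63-null groups (-0.0523). The scanner's Cy5 signal turned the sample channel sign of Krt18 in the knockout (0.0606) and of Krt7 between the p63-null groups (-0.0038). The cause was not tested.

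With each array left out in turn, log ratio differences between the knockout and wild type ran from -0.16 to 0.36 for Krt18 and -1.27 to 0.20 for Krt20. Between the p63-null groups they ran from -0.64 to 0.73 for Krt8, -0.67 to 0.98 for Krt18 and -0.66 to 0.0515 for Krt19. With Cdx2 against wild type they ran from -1.08 to 0.29 for Krt8, -0.65 to 1.00 for Krt18, -1.59 to -0.88 for Krt19 and -0.89 to 0.54 for Krt20. In the sample channel the knockout against wild type gave -1.28 to -0.95 for Krt7, -0.25 to 0.23 for Krt18 and -1.38 to 0.15 for Krt20. Between the p63-null groups it gave -0.14 to 0.23 for Krt7, -0.37 to 0.91 for Krt8, -0.35 to 0.90 for Krt18 and -0.62 to 0.15 for Krt19. With Cdx2 against wild type it gave -1.25 to -0.93 for Krt7, -1.04 to 0.24 for Krt8, -0.41 to 0.85 for Krt18 and -0.93 to 0.60 for Krt20. Where a single array with Cdx2 remained, it was assumed to vary like the other groups.

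Counts over all genes moved more. The log ratio count for the knockout was 74, and 9 with the block to 183 with no background subtraction. With Cdx2 against wild type it was 319, and 8 to 803 under the same settings. Between the p63-null groups it was 0, and up to 36 without replicate 1 of the knockout with Cdx2. In the sample channel the counts of 393, 51 and 548 became 74, 0 and 35 with the block. Groups of 2 to 4 arrays limit what could be called.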
